A study of Mus musculus with 4 samples.

Results

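The genes described here are 9 members of the Krüppel-like factor (KLF) family, Klf2, Klf3, Klf4, Klf6, Klf7, Klf9, Klf10, Klf11 and Klf13, of 26089 mouse genes with curated RefSeq transcripts, 20923 of them protein-coding. They were taken by name, and for each gene all SMAD4 peaks were collected whose summit lay in the gene body or within 50 kb of a curated transcription start site (TSS). SMAD4 binding was profiled by HT-ChIPmentation, which joins chromatin immunoprecipitation to tagmentation, the cutting and tagging of bead-bound chromatin by Tn5 transposase. The cells were alveolar macrophages (AMs), the macrophages of the lung airspaces, recovered by bronchoalveolar lavage from 9-wk-old wild-type C57BL/6J mice and sorted by flow cytometry. All samples came from this condition, with 2 SMAD4 libraries (replicates 1 and 2) and 2 input libraries made without the antibody, which enter only as the control level behind each peak. The labels do not say whether the replicates came from separate mice. There was no second condition and no RNA measurement, so that the data place SMAD4 near a gene and give neither its expression nor a change in it.

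KLF proteins are transcription factors with zinc fingers that bind GC-rich and CACCC sequences, as do the related SP factors. Klf2, Klf4, Klf6 and Klf7 belong to the subgroup that mostly activates transcription. Klf3 recruits the corepressor CtBP, and Klf9, Klf10, Klf11 and Klf13 can recruit the corepressor Sin3A. In myeloid cells Klf4 promotes monocyte differentiation, Klf2 restrains inflammatory activation, and Klf6 takes part in macrophage polarization. Klf10 and Klf11 are also known as TIEG1 and TIEG2, for TGFβ-inducible early genes. SMAD4 is the partner shared by the receptor-activated SMADs that carry TGFβ and BMP signals into the nucleus. The study profiled SMAD4 in AMs to explore possible interactions of retinoid X receptors with SMAD4, STAT5 and RBPJ. It compared the peaks of these factors and the macrophage genes near them.

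SMAD4 peaks of both libraries were found at 7 of the 9 KLF genes. The windows held 42 peaks in replicate 1 and 52 in replicate 2, and 34 shared regions, each formed by joining peaks of the 2 libraries that had 1 bp or more in common, of 10964 shared regions in the genome. Klf6 and Klf13 had 8 shared regions each, Klf7 had 6, Klf2 had 4, Klf3 and Klf10 had 3 each, and Klf4 had 2. Klf9 had peaks in replicate 2 alone, and Klf11 had none in either library. At least 1 shared region was found by the same rule for 39.1% of protein-coding genes. Strength was read from the fold enrichment and from the number of fragments stacked at the summit. The fold is the authors' ratio of those fragments to the control level, with 1 added to each. The strongest region lay downstream of Klf6, with fold enrichments of 27.3 and 42.9 in replicates 1 and 2.

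The sequence at the centre of the strongest shared region is given for each gene that had one, in mm10 (GRCm38), plus strand, read from the RefSeq assembly. Each stretch runs 100 bp to either side of the mean summit of both libraries. Capitals mark matches to 12 consensus strings searched on both strands: SMAD (GTCTGG), the SMAD palindrome (GTCTAGAC), the GC-type SMAD string (GGCGCC), CEBP (TTGCNNAA), PU.1 (GAGGAAGT), AP-1 (TGANTCA), RUNX (TGTGGT), STAT5 (TTCNNNGAA), the E-box (CACGTG), the nuclear receptor half-site (AGGTCA), RBPJ (GTGGGAA) and the KLF and SP string (CCNCNCCC). Matches of different strings may overlap, and the KLF and SP string can overlap itself. The region of Klf3 lies in an untranslated exon of a predicted transcript on the opposite strand, and its stretch is cut to 14 bp either side of the summit.
Klf6, chr13:5875612-5875812: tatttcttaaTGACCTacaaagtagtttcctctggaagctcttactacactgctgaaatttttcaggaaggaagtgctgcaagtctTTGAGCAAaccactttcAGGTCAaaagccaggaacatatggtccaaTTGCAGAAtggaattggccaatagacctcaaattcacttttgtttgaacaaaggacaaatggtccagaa
Klf2, chr8:72322515-72322715: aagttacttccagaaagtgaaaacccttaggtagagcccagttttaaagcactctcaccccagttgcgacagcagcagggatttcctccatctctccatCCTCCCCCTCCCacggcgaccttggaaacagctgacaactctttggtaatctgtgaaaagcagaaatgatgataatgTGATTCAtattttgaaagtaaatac
Klf7, chr1:64052126-64052326: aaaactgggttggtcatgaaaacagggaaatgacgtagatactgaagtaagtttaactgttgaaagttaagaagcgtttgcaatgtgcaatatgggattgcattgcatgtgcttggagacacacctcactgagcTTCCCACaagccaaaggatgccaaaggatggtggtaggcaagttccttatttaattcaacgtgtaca
Klf13, chr7:63916497-63916697: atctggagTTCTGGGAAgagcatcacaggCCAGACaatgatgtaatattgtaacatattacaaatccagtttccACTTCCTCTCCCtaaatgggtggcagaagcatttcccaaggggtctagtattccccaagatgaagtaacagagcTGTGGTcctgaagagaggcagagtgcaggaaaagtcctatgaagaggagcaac
Klf3, chr5:64806431-64806459: gggagctatcatgtctctacactgtgatt
Klf4, chr4:55534554-55534754: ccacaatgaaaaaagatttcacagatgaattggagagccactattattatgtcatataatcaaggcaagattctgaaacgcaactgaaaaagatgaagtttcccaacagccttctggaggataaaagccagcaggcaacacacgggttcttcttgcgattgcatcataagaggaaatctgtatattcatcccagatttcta
Klf10, chr15:38326231-38326431: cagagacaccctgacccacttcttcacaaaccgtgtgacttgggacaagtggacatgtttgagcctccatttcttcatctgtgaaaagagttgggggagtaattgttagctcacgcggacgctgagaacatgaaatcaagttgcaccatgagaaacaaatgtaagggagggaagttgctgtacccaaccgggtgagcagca

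In these stretches, the Klf6 summit had a CEBP string on either side of it, at 10 bp before and 36 bp after the mean summit, and a nuclear receptor half-site 6 bp after it. At Klf2, a run of C and T at the summit held overlapping KLF and SP matches at 3 and 7 bp. The Klf13 stretch held the SMAD, PU.1, RUNX, STAT5 and KLF and SP strings, the PU.1 and the KLF and SP match sharing bases. A match says that the letters are present and does not show that the factor binds there. The cut Klf3 stretch leaves out a CEBP string 17 bp after the mean summit and a KLF and SP string 19 bp before it. The Klf4 and Klf10 stretches held none of the 12 strings, which says nothing of the factors beyond those letters.

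Another region of Klf10 is shown because it was the only KLF region that held the SMAD palindrome, and it was chosen after the matches were seen. It lay 1102 bp past the annotated end of the gene and also held the SMAD string, 9 bp after the mean summit, with the palindrome at 25 bp.
Klf10, downstream region, chr15:38290262-38290462: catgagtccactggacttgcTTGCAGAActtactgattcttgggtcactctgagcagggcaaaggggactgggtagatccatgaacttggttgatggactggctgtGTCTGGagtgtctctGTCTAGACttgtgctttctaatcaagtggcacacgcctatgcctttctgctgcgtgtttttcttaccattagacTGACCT

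This downstream region was among the weakest of the 34. Its fold enrichment was 4.87 in replicate 1, with 14 fragments at the summit, and 4.96 in replicate 2, with 10 fragments. The summits of the libraries were 140 bp apart. Of all 10964 shared regions, 0.465% held the palindrome within the same distance of the mean summit.

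The activator-type genes Klf2, Klf4, Klf6 and Klf7 all had shared regions, 20 in total, where 39.1% of protein-coding genes had at least 1. Another gene's TSS was closer to 1 of these regions at Klf6 and to 3 at Klf7. Klf6, on chromosome 13 at 5861489 to 5870393 (plus strand), had 14 peaks in each library. Its strongest region, at 5875182 to 5876081, was intergenic and had its mean summit 14223 bp downstream of the TSS and 5319 bp past the gene end. Replicate 1 had 83 fragments at this summit (exact Poisson 95% interval 66.1 to 103) and replicate 2 had 94 (76.0 to 115), a mean fold enrichment of 35.1 ± 11.0 (SD, n = 2). The fold stood at percentile 99.2 of all peaks in replicate 1 and 99.5 in replicate 2, and the summits of the libraries were 1 bp apart. Such intervals cover counting error only.

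The next strongest Klf6 region was close by, at 5873403 to 5874381, with folds of 17.2 and 27.1 and 52 and 59 fragments. A weaker region at 5874745 to 5875076 lay between them (folds 4.27 and 5.96). These 3 regions spanned 2679 bp, starting 3010 bp past the gene end. In all, 6 of the 8 Klf6 regions had their mean summit downstream of the gene, 1 in exon 4 of 4, and 1 at 15610 bp upstream, where the TSS of the noncoding gene 1700016G22Rik was closer. Binding at Klf6 was therefore located mostly at the 3′ side of the gene.

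At the Klf6 promoter, defined as 1 kb upstream to 100 bp downstream of the TSS, each library had a peak, but the peaks did not overlap. The peak of replicate 1 at 5861180 to 5861422 had its summit 200 bp upstream of the TSS, with a fold of 6.5 and 19 fragments (11.4 to 29.7). The peak of replicate 2 at 5861495 to 5861802 had its summit 64 bp downstream of the TSS, with a fold of 9.02 and also 19 fragments (11.4 to 29.7). They were separated by 72 bp, and their summits by 264 bp. A peak of each list in the gene's own promoter was found for 3.13% of protein-coding genes, and among the KLF genes for Klf6 alone. No KLF gene had a shared region in its own promoter, which 3.1% of protein-coding genes had.

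The 250 bases before the Klf6 TSS (RefSeq promoter, GRCm38.p6) are given because each library had a peak at this promoter. The stretch ends before the peak of replicate 2 starts at 5861495. Capitals mark matches to the same 12 strings.
Klf6 promoter, chr13:5861239-5861488: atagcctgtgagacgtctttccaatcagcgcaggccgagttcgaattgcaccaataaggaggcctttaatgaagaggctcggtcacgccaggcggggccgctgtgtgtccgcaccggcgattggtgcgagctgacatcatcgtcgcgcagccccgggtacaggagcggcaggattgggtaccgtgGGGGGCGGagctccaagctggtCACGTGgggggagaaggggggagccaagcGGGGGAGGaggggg

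The matches there, all in the 72 bp between the peaks, were an E-box and 2 KLF and SP matches on the minus strand. Such promoters were found for 8 of the 9 members, and 7 of these (all but Klf9) held the KLF and SP string, compared with 53.5% of 16779 protein-coding promoters of the same length. The E-box was in 3 of the 8 (Klf4, Klf6 and Klf11), compared with 6.85%. The SMAD string was in none of the 8, compared with 14.4%, and neither were the palindrome, CEBP, PU.1, RUNX, RBPJ and nuclear receptor strings.

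Klf2, on chromosome 8 at 72319062 to 72321654 (plus strand), had 4 peaks in replicate 1 and 6 in replicate 2. The strongest of its 4 shared regions, at 72322252 to 72322854, lay just downstream of the gene, 961 bp past its end, within the segment assigned to the end of its transcript (the termination site, TTS, taken from 100 bp before to 1 kb after the end). The fold was 17.2 in replicate 1, with 52 fragments (38.8 to 68.2), and 28.4 in replicate 2, with 62 fragments (47.5 to 79.5). The region was above percentile 95 in both lists. Klf2 had another pair of shared regions upstream of the TSS, at 1192 and 1820 bp. The closer of these, at 72317482 to 72318018, was the next strongest, with folds of 7.15 and 7.67 and 21 and 16 fragments. A further region lay in an intron of the neighbouring gene Eps15l1, still with the Klf2 TSS as the closest. The strongest unshared Klf2 peak was found in replicate 2, 15391 bp upstream, with a fold of 6.77 and 14 fragments.

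Klf4, on chromosome 4 at 55527137 to 55532475 (minus strand), had 2 peaks in replicate 1 and 3 in replicate 2. Its strongest region, at 55534354 to 55535075, lay 2179 bp upstream of the TSS, with folds of 10.7 and 16.2 and 32 fragments (21.9 to 45.2) and 35 fragments (24.4 to 48.7). Both libraries placed the summit at the same base. The other, at 55567219 to 55567752, was 34898 bp upstream, with folds of 6.5 and 11.7 and 19 and 25 fragments. The unshared peak was in replicate 2, 23711 bp downstream of the TSS, with a fold of 4.96 and 10 fragments.

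Beyond its window, Klf4 was the nearest gene to 12 further shared regions, all of them upstream, between 59.2 and 427.7 kb from the TSS. The strongest and most distant of these, at 55959707 to 55960871, had folds of 25.0 (76 fragments) and 43.1 (102 fragments), a mean of 34.1 ± 12.8 (SD, n = 2), close to the strongest Klf6 region. At 91.1 kb upstream, a region at 55623253 to 55623992 had folds of 13.97 and 24.8. Klf4 was thus the nearest gene to 14 shared regions and Klf6 to 10. Among protein-coding genes, 0.206% had 10 or more regions nearest to them. This assignment depended on the gene models. With predicted RefSeq transcripts included, Klf4 was nearest to 0 and Klf6 to 6, with a minimum fold of 5 they were nearest to 9 and 7, and with protein-coding genes alone to 14 and 19. In that last case Klf7 was nearest to 9 regions and Klf13 to 5, against 6 and 2 with all curated genes. The distance to a TSS does not show which gene a distant region acts on.

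Klf7, on chromosome 1 at 64035663 to 64121389 (minus strand), had 7 peaks in replicate 1 and 8 in replicate 2, in a window that its long gene body extended to 135.7 kb, against 100 kb for most genes. Of its 6 shared regions, 5 were in introns. The strongest, at 64051994 to 64052551 in intron 2 of 3, was 69163 bp from the Klf7 TSS and 9725 bp from that of the microRNA gene Mir6899, which was closer. Its folds were 16.6 and 25.7, with 50 fragments (37.1 to 65.9) and 56 fragments (42.3 to 72.7), and its summits were 1 bp apart. The next, at 64080027 to 64080705 in intron 1, had folds of 10.1 and 16.2 and 30 and 35 fragments, and was again closer to Mir6899. The region nearest to the Klf7 TSS was in intron 1, at 3051 bp, with folds of 7.8 and 10.4. The strongest unshared peak was in replicate 1, 6439 bp upstream, with a fold of 5.37 and 17 fragments. Another 3 shared regions nearest to Klf7 lay 165.8 to 180 kb upstream, beyond the window.

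**Figure D1:**
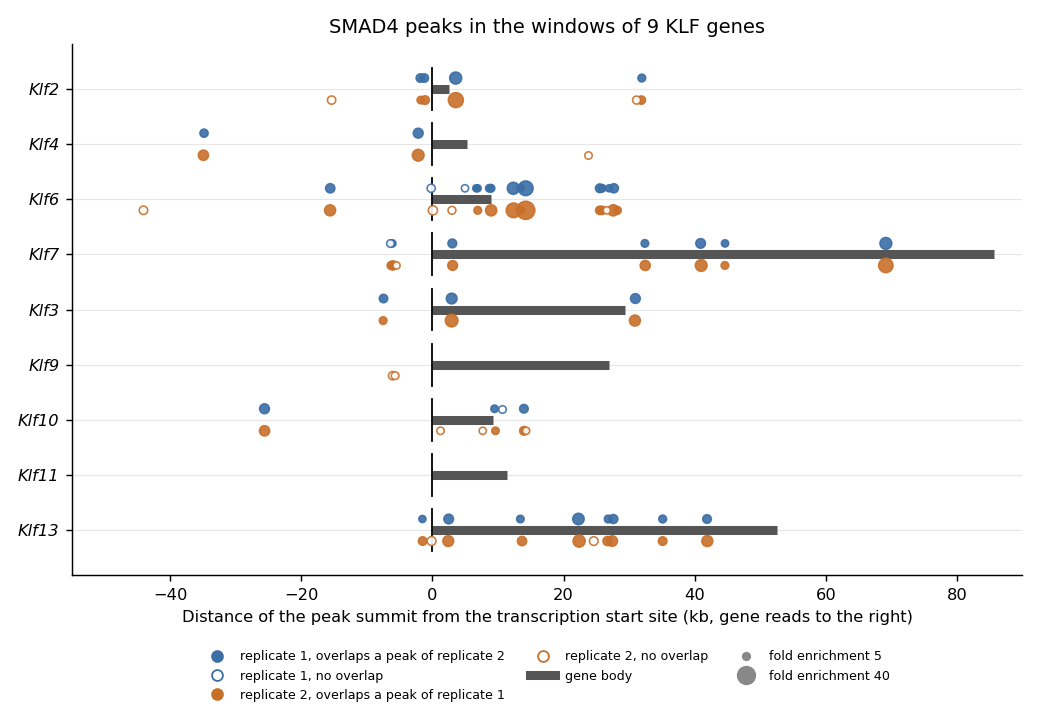
SMAD4 peak summits in the windows of the 9 KLF genes, by distance from the TSS in kb with the gene reading to the right. Points above each gene are replicate 1 and below it replicate 2, filled where the peak overlaps a peak of the other library and open where it does not, and larger with higher fold enrichment; bars are gene bodies. The largest points lie at 14223 bp downstream of the Klf6 TSS, Klf9 has 2 open points, and Klf11 has none.

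Klf3, the CtBP-binding member, is on chromosome 5 at 64803521 to 64832901 (plus strand) and had 3 peaks in each library, which all overlapped. The strongest region, at 64806109 to 64806664, was in intron 1 of 6, 2924 bp downstream of the TSS. Its folds were 13.1 and 19.3, with 43 fragments (31.1 to 57.9) and 45 fragments (32.8 to 60.2). The next, at 64834240 to 64834746, was 1537 bp past the gene end, with folds of 10.4 and 13.99 and 31 and 30 fragments. A region 7503 bp upstream was weaker (folds 7.16 and 5.41). A further region nearest to Klf3 lay 50323 bp upstream, just outside the 50 kb limit, with folds of 7.54 and 18.95 and 42 and 41 fragments.

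The Sin3A-binding genes were uneven. Klf10 and Klf13 had 11 shared regions between them, and Klf9 and Klf11 had 0. Klf13, on chromosome 7 at 63886351 to 63938915 (minus strand), had 8 peaks in replicate 1 and 10 in replicate 2. Of its 8 shared regions, 7 lay within the gene body and 1 lay 1523 bp upstream of the TSS. The strongest, at 63916255 to 63916962 in the only intron of Klf13, was also in the promoter of another protein-coding gene, E030018B13Rik, 260 bp upstream of its TSS. Its folds were 15.3 and 17.6, with 46 fragments (33.7 to 61.4) and 41 fragments (29.4 to 55.6). In all, 6 of the 8 regions were closer to the TSS of E030018B13Rik or of the noncoding gene Gm27252 than to that of Klf13, so that Klf13 itself was the nearest gene to 2. The stronger of these, at 63936214 to 63936784, was 2441 bp downstream of the Klf13 TSS, with folds of 10.1 and 13.5 and 30 and 29 fragments. In its promoter, Klf13 had a peak in replicate 2 alone, at 63938938 to 63939242, 140 bp upstream of the TSS, with a fold of 8.12 and 17 fragments (9.90 to 27.2).

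Klf10, on chromosome 15 at 38291464 to 38300711 (minus strand), had 4 peaks in replicate 1 and 6 in replicate 2. The strongest of its 3 shared regions, at 38326172 to 38326676, was 25620 bp upstream of the nearest of its 2 TSSs. Its folds were 10.7 and 11.7, with 32 fragments (21.9 to 45.2) and 25 fragments (16.2 to 36.9). The next, at 38285836 to 38286073, was 5516 bp past the gene end, with folds of 7.47 and 7.67 and 22 and 16 fragments. Klf10 was the nearest curated gene to all 3, and to 0 with predicted transcripts included. The strongest unshared peak was in replicate 1, with a fold of 5.2 and 15 fragments.

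Klf9, on chromosome 19 at 23141226 to 23168129 (plus strand), had 0 peaks in replicate 1 and 2 in replicate 2. These lay 6086 and 5701 bp upstream of the TSS, with folds of 6.77 (14 fragments) and 5.41 (11 fragments). At Klf11, on chromosome 12 at 24651371 to 24662782 (plus strand), neither library had a peak within 50 kb, and the nearest shared region lay 158590 bp from its TSS. A peak list holds only what passed the q-value limit, so binding below that limit was not detectable at this depth. Having no shared region in the window was common, at 12742 of 20923 protein-coding genes (60.9%).

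The genes were ordered by the mean fold of the strongest shared region in their window. The order was Klf6 (35.1 ± 11.0, SD, n = 2), Klf2 (22.8 ± 7.92), Klf7 (21.1 ± 6.47), Klf13 (16.4 ± 1.63), Klf3 (16.2 ± 4.33), Klf4 (13.5 ± 3.90) and Klf10 (11.2 ± 0.712). Neighbours in this order were not told apart, since the Poisson intervals of their fragments overlapped in both libraries. The Klf6 region was above those of Klf7, Klf13, Klf3, Klf4 and Klf10 with intervals that did not overlap in either library, and its interval overlapped that of Klf2 in both.

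**Figure D2:**
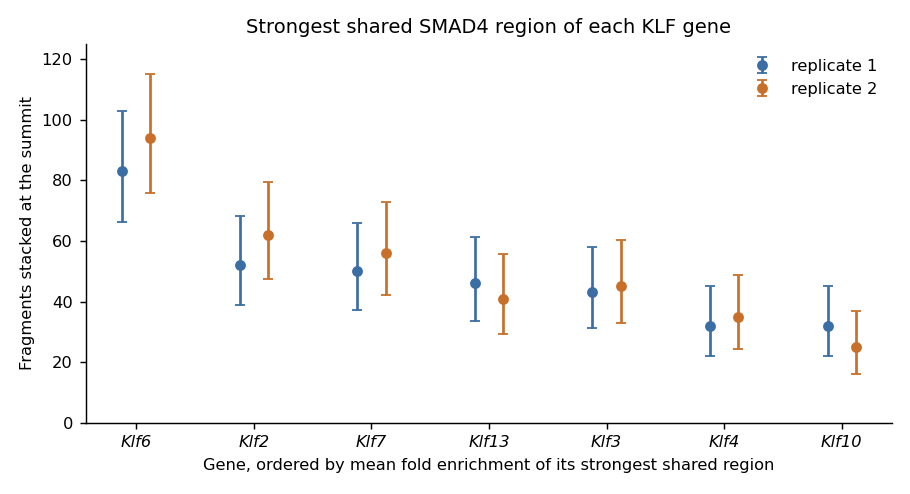
Fragments stacked at the summit of the strongest shared region of each KLF gene, in replicate 1 and replicate 2, with exact Poisson 95% intervals as bars. Klf6 has 83 and 94 fragments, the others lie between 25 and 62, and the intervals of neighbouring genes overlap.

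Within the regions, folds were higher in replicate 2 in 31 of 34, compared with 87.2% of all shared regions. The exceptions were the Klf2 region 1820 bp upstream of the TSS, the Klf6 region 25513 bp downstream and the Klf3 region 7503 bp upstream. The numbers of fragments did not share this direction. They were higher in replicate 2 in 18 of the 34 regions and higher in replicate 1 in the others, and the Poisson intervals of both libraries overlapped in all 34. These numbers were not scaled by total reads, so the overlap does not show equal enrichment. The control level at most summits was 2.08 fragments in replicate 1 and 1.22 in replicate 2, and the denominator of the fold is this level plus 1. Folds of the libraries are therefore set side by side here and not read as a difference in binding. Over the 34 regions, Spearman's rho between the libraries was 0.804, and over all shared regions it was 0.782. This describes regions within the same libraries, with no p-value.

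**Figure D3:**
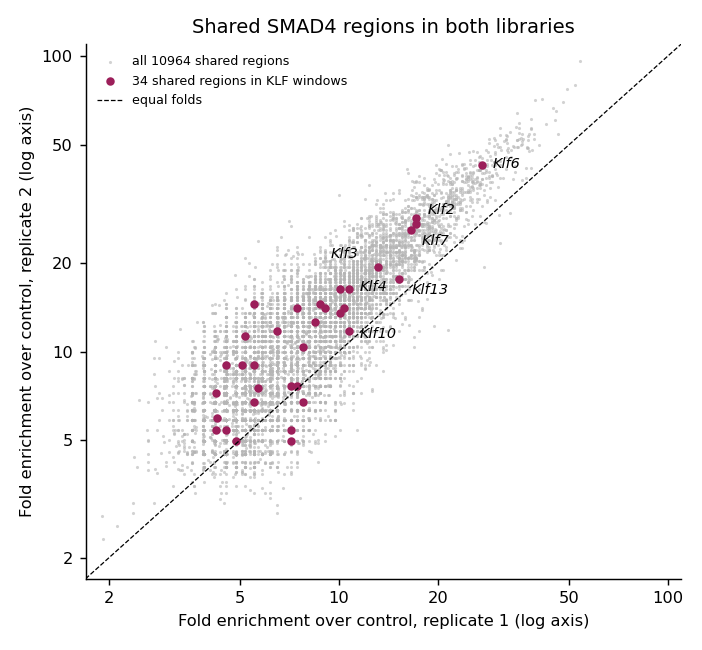
Fold enrichment over control of the strongest peak of each library in every shared region, replicate 1 against replicate 2, on log axes; grey points are all 10964 shared regions, coloured points the 34 in KLF windows, and names mark the strongest region of each gene. KLF points run from folds of 4.22 in replicate 1 and 4.96 in replicate 2 to 27.3 and 42.9 at Klf6, within the range of all shared regions (1.91 to 54.0 and 2.32 to 96.1), and 31 of the 34 lie above the line of equal folds.

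Against all protein-coding genes, the counts were as follows. At least 1 shared region in the window was found for 39.1% of protein-coding genes and for 7 of the 9 KLF genes. At least 3 were found for 10.3% and for 6 of the 9, all but Klf4, Klf9 and Klf11. At least 6 were found for 1.97% and for Klf6, Klf7 and Klf13. A shared region in the top 5% of both lists by fold was found in the windows of 4.23% of protein-coding genes and of Klf2, Klf6 and Klf7. The median over protein-coding genes was 0 shared regions, with a mean of 0.828 and a 99th percentile of 7, and the median over the KLF genes was 3. As nearest gene to at least 1 shared region, 7 KLF genes counted, compared with 21.5% of protein-coding genes, and 5 counted with predicted transcripts included, compared with 18.5%. The members were a named list from a family, chosen with earlier results of these data known, and these counts are descriptions with no test.

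**Figure D4:**
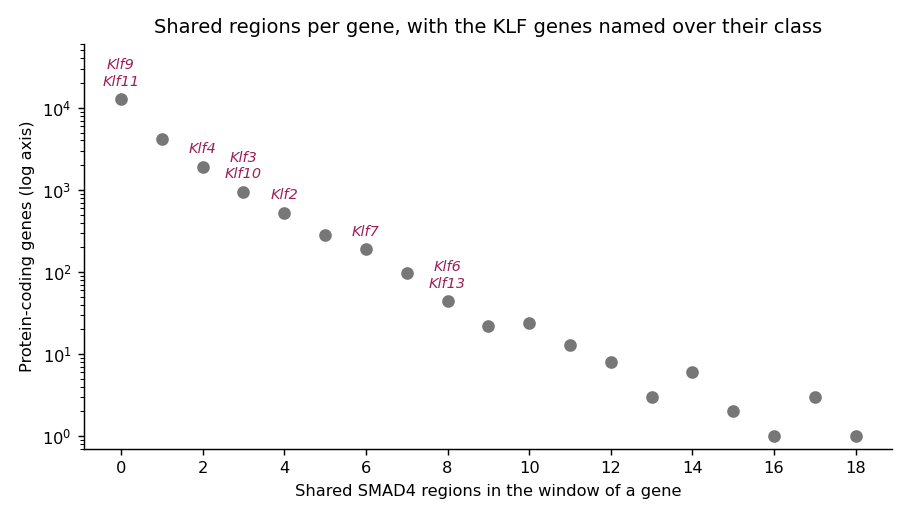
Number of protein-coding genes (log axis) with each number of shared SMAD4 regions in their window; KLF genes are named over the point of their class. Klf6 and Klf13 stand at 8, Klf7 at 6, and Klf9 and Klf11 with the 12742 genes that have none.

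Peaks in KLF windows found a partner in the other library in 38 of 42 cases in replicate 1 (90.5%) and in 37 of 52 in replicate 2 (71.2%). Many peaks lie close together at the same gene (14 in each library at Klf6), so no interval is given for these shares. Over all peaks the shares were 69.4% and 59.2%. The median fold of KLF peaks was 6.82 in replicate 1 and 7.67 in replicate 2, against 5.52 and 6.77 over all peaks, so that both the fold and the share with a partner were higher. The 19 KLF peaks without a partner had 13 to 19 fragments in replicate 1 and 9 to 19 in replicate 2, where the medians over all peaks were 17 and 14. In promoters lay 1 of the 4 in replicate 1 and 2 of the 15 in replicate 2, compared with 2.4% and 10.2% of all peaks without a partner. Of the summits of KLF peaks, 85.7% and 86.5% had the genome-wide control level in replicates 1 and 2, and 79.4% and 80.9% of all summits did.

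By position, 17 of the 34 KLF regions were intergenic (50%, compared with 40.5% of all shared regions) and 13 were intronic (38.2% and 49.3%). The TTS held 2 (5.88% and 1.3%), the region past the end of Klf2 and a Klf6 region 36 bp past the gene end. A promoter held 1, that of E030018B13Rik (2.94% and 6.42%), and an exon 1. Relative to their own gene, 9 regions lay upstream, 14 in the gene body and 11 past its end. KLF regions had a median width of 520.5 bp and a median distance of 8733 bp to the nearest TSS, against 440 and 18041 bp over all shared regions, the window itself bounding the distance.

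The consensus strings at KLF regions included those of macrophage factors. The CEBP string was within 100 bp of the mean summit in 16 of the 34 regions (47.1%, compared with 40.9% of all shared regions), among them 5 of the 6 Klf7 regions, and in neither of the Klf4 regions. PU.1, the factor that defines the myeloid lineage, had its string in 6 (17.6% and 8.0%), at Klf2, Klf4, Klf7, Klf3 and Klf13. AP-1 had 6 (17.6% and 12.3%), 3 of them at Klf6. The nuclear receptor half-site was in 8 (23.5% and 15.4%) and RUNX in 7 (20.6% and 26.4%), and the order of these shares changed with the window. Within 200 bp, the half-site was in 23.5% of KLF regions and 26.6% of all, and RUNX in 41.2% and 38.9%. Centred on the summit of replicate 1, the half-site was in 14.7% and 15.0%.

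The SMAD string was in 6 KLF regions (17.6% and 11.2%), with 3 at Klf13 and 1 each at Klf6, Klf7 and Klf10. The string of the KLF and SP factors themselves was in 9 (26.5% and 14.5%), at Klf13 in 4, at Klf6 in 2, and at Klf2, Klf3 and Klf7 in 1 each. RBPJ and STAT5 had 2 each (for RBPJ 5.88% and 4.14%). For STAT5 the shares were 5.88% and 8.06%, and 17.6% and 14.9% within 200 bp. The E-box was in 1 region (2.94% and 3.65%), and so was the GC-type SMAD string (2.94% and 1.012%). At least 1 of the 12 strings was in 28 of the 34 regions (82.4% and 82.0%), and mean GC content was 44.7% ± 5.59 (SD over 34 regions), compared with 43.7% ± 6.49 in all. Centred on the summit of replicate 1, 3 regions held PU.1 (8.82%, compared with 7.39% of all).

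**Figure D5:**
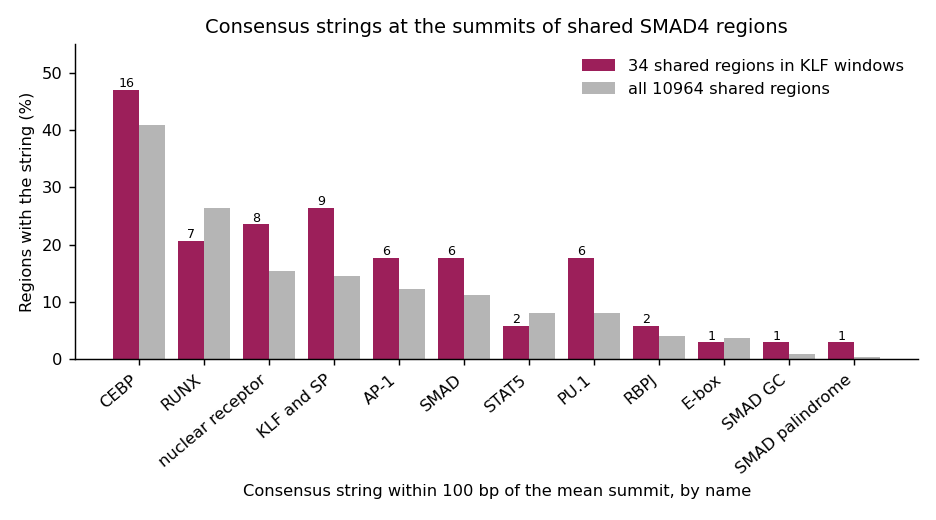
Share of shared regions with each consensus string within 100 bp of the mean summit (%), in the 34 KLF regions (coloured, with the number of regions over the bar) and in all 10964 (grey). CEBP leads in both sets, the KLF and SP string stands at 26.5% and 14.5%, and the order of the bars of the nuclear receptor, RUNX and STAT5 strings turns within 200 bp of the summit.

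In the rest of the family, shared regions were fewer than at the 9 members, which were chosen with earlier results of these data known. By the same rule, 39.1% of protein-coding genes had at least 1 shared region. Among the other 8 KLF genes (Klf1, Klf5, Klf8, Klf12, Klf14, Klf15, Klf16 and Klf17), Klf16 alone had one, with folds of 6.17 and 11.7, 44766 bp from its TSS and nearest to Csnk1g2. Of the 9 SP genes, 6 had at least 1 shared region, with the strongest near Sp2 (folds 15.9 and 27.1, 2635 bp from its TSS) and Sp3 (15.9 and 22.6, 8779 bp). Sp2 and Sp6, and likewise Sp1 and Sp7, are neighbours that count the same regions. As a check on the cell type, all 10 AM marker genes (among them Siglecf, Pparg, Marco and Car4) had a shared region by the same rule. Their strongest regions ran from folds of 45.8 and 65.4 at Chil3 to 5.2 and 5.87 at Csf2ra. The only Fabp4 region lay 38750 bp from its TSS and was nearest to Fabp12. The strongest regions of Siglecf and Mrc1 were nearest to Zfp715 and Tmem236. A shared region was also found at 1 of 6 epithelial genes (Scgb1a1) and 1 of 4 neutrophil genes (S100a8). Scgb1a1 had 5, the strongest 76 bp from its TSS (folds 7.47 and 11.3). S100a8 had 3, the strongest 88 bp from its TSS (folds 13.6 and 30.7). Since binding near a gene is no measure of its expression, this is a description of the peak lists, and the part of other cells in the KLF peaks was not tested.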

How the data were processed

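The measurements used were the peaks of the 2 SMAD4 libraries. After adapter trimming (cutadapt), alignment to mm10 (Bowtie2) and filtering (SAMtools), the authors called peaks in each library separately with MACS3 against input at a q-value limit of 0.05. Per the deposited lists, each peak has a fold ratio of summit pileup over control, a −log10 p, a −log10 q, a score and a summit position. The score the authors deposited was not used further. MACS3 adds 1 to pileup and control before it divides them, and takes p from their Poisson tail. From fold and p, the whole number of fragments at the summit and the control level were recovered (largest error 0.00054 in −log10 p). Total reads per library were not used. Fragment numbers give the depth of each value, with exact Poisson 95% intervals.

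Gene models were 45657 curated RefSeq transcripts of GRCm38.p6, the assembly that mm10 names. Coordinates are 1-based. Peaks counted for a gene by their summit, and shared regions where a peak of each list had its summit in the window. Percentiles are within a library's own list. Exons, introns and intergenic sequence were assigned after promoters and TTS. All 9 members are described, each with its 2 strongest shared regions, shared regions in promoters and strongest unshared peak. The members and lists were chosen with earlier results of these data known. Replicates were numbered in accession order. With 1 condition and 2 libraries there is no test between groups. A further marker list is not reported here. Scripts were tested on simulated data. Python 3.11.15, pandas 2.3.3, scipy 1.17.1 and samtools 1.23.1 were used.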

Additional observations from a re-analysis of the deposited data

How the results depend on the processing

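None of 40 alternative values for the main counts and folds was reversed, but a count has no direction that could reverse. The q limits of 0.01 and 0.001 could remove no KLF peak, since the largest q was 0.000298 in replicate 1 and 0.000455 in replicate 2. Of the 32 other values, 29 stayed within 1.5 times the reported count or, for a fold, within the SD between libraries. With 2 libraries, the fold of either one alone lies within that SD by construction. KLF genes with a shared region numbered 7 under every overlap rule, minimum fold, window and gene model tried, while the share of protein-coding genes with one moved from 39.1% to 20.6% within 10 kb, 54.9% within 100 kb and 33.2% with a minimum fold of 5. They numbered 7 to 8 when either library was left out (46.6% and 53.4% of protein-coding genes), with Klf9 added by the peaks of replicate 2 alone. The 34 shared regions numbered 27 with a minimum fold of 5, 28 with reciprocal overlap of 50%, 30 with summits within 100 bp, 23 within 10 kb and 46 within 100 kb. Leaving out a library replaced them by the peaks of the other, 42 to 52. In replicate 2, 33 KLF peaks lay within 10 kb, fewer by construction. The fold of the strongest Klf6 region was 27.3 to 42.9 when either library was left out, and 58.6 as fragments over the genome-wide control level, a ratio that adds no 1 to either term. Within the windows used, Klf6 stayed first by percentile, by that ratio and by either library alone. Klf3 and Klf13 exchanged places by that ratio and by replicate 2 alone, and Klf10 tied with Klf4 by replicate 1 alone. The order was not tried with other windows. Outside its window, Klf4 was nearest to a region with folds of 25.0 and 43.1, against 27.3 and 42.9 at Klf6. Another, 91.1 kb upstream of Klf4, had a mean fold of 19.4, above the strongest at Klf13 (16.4) and Klf3 (16.2). Windows of 200 bp to either side gave 33 regions with any string, compared with 93.6% of all shared regions. Low fragment numbers limit the weaker regions, and peaks below the q limit are not listed. No paired analysis was possible because the labels give no replicate numbers and there is 1 condition.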
